A study of Homo sapiens with 6 samples.

Results

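IFI6, IFI27, IFI35, IFI44, IFI44L, EPSTI1, SAMD9, SAMD9L, XAF1 and RTP4 are interferon-stimulated genes (ISGs), a class of genes that cells switch on in response to interferon. They were taken by their symbols from the table of 60498 genes, and all 10 were present, each once. All 10 passed the filter on low values (a mean of at least 10 counts over the libraries), which kept 15126 genes.

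The cells were SKOV3, a long-established line from an ovarian cancer. Its parent population carries a WT and a HAQ allele of STING1 (WT/HAQ), HAQ being a common haplotype with 3 amino acid changes. The other lines are clones from CRISPR/Cas9 editing in which the WT allele alone (WT/-) or the HAQ allele alone (HAQ/-) remained. Each line gave 1 control library and 1 library of cells given 10 μg/mL cGAMP for 30 min and then rested for 4 h, so no condition was replicated and each edited genotype is represented by 1 edited line. How the control cells were handled is not given in the sources used here, so cGAMP and the permeabilization that delivers it cannot be told apart. The comparison asks how these ISGs respond to cGAMP when a cell holds both STING1 alleles or 1 of them.

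cGAMP is the second messenger made by the DNA sensor cGAS. It binds STING1 on the endoplasmic reticulum, and STING1 then recruits the kinase TBK1, which activates the transcription factor IRF3. IRF3 drives IFN-β and some ISGs directly. Secreted interferon then acts through its receptor and the ISGF3 complex, which includes STAT2 and IRF9 and binds paired GAAA boxes in ISG promoters. In bulk RNA, fewer responding cells and less RNA per responding cell cannot be told apart.

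The libraries held 12444822 to 17608467 counts and 21193 to 21992 detected genes. Levels below are counts scaled by TMM, called normalized counts. The edited gene was lower in both clones, with 669.1 normalized counts of STING1 in the WT/HAQ control, 352.8 in WT/- and 212.9 in HAQ/-. The corresponding cGAMP libraries held 1780, 552.9 and 402.8. STING1 level therefore moved with genotype beside every result between lines, and its part in them was not tested. Of 5 epithelial markers (KRT8, KRT18, KRT19, EPCAM and ERBB2), all were present in every library, and KRT19 stood at 5629 normalized counts in the WT/HAQ control against 364.0 and 413.5 in the WT/- and HAQ/- controls. The blood cell markers PTPRC, CD3E and CD14 had at most 4 counts in any library. Endothelial PECAM1 and VWF had 2 to 19 counts, and the fibroblast-associated genes COL1A1 and DCN had 839 to 1123 and 143 to 238 counts.

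The promoters were searched for the letters that IRF and ISGF3 factors read. In windows from 250 bases before to 50 bases after the annotated start (RefSeq, GRCh38.p14), the motif GAAANNGAAA was sought on both strands (TTTCNNTTTC on the other). It was present in 7 of the 10 genes, against 1195 (4.38%) of the 27305 genes with a window, and in 3.57% of all 35116 windows. IFI6 held 3 matches, which 0.0476% of genes reach, and IFI27, IFI44L and RTP4 held 2 each, which 0.311% of genes reach. IFI44, EPSTI1 and SAMD9 held 1, and IFI35, SAMD9L and XAF1 held 0. The GAS core TTCNNNGAA, the letters of the interferon-γ activated site, was present in IFI27, IFI35 and EPSTI1 and in 9.38% of genes with a window. In EPSTI1 and IFI27 the GAS core overlapped a GAAA pair. IFI27, IFI44 and XAF1 each had 2 windows at alternative starts, and for IFI27 and IFI44 both windows overlap and hold the same matches.

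The sequences below show the spacing and number of these sites in the 7 genes that have them and, for contrast, the paralog SAMD9L. Each begins 200 bases before the first listed start and is written 5′ to 3′ on the strand of the gene, with the GAAA boxes of GAAANNGAAA in capitals. The stretches hold no annotated exonic base of the gene, except for 3 that end the last site of IFI44L, and those of IFI44L and IFI27 lie in introns of transcripts that begin further upstream. On the minus strand lie IFI6 (chr1:27672213-27672392), EPSTI1 (chr13:42992272-42992441), SAMD9 (chr7:93118024-93118179) and SAMD9L (chr7:93148386-93148585). On the plus strand lie IFI44L (chr1:78620248-78620384), IFI27 (chr14:94110536-94110677), RTP4 (chr3:187368185-187368384) and IFI44 (chr1:78649589-78649788).
IFI6: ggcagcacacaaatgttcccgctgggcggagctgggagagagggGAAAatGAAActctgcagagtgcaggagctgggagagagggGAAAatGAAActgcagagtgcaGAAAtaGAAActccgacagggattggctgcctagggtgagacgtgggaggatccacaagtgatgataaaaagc
IFI44L: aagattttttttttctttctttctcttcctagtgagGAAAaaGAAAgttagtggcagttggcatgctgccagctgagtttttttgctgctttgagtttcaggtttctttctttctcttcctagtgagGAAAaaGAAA
IFI27: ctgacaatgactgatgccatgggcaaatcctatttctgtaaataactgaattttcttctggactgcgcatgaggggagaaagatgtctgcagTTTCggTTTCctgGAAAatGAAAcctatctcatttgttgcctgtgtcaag
RTP4: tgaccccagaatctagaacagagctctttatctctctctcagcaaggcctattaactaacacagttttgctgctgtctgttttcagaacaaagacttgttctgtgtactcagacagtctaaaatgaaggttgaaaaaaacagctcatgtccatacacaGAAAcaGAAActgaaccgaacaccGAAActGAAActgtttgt
IFI44: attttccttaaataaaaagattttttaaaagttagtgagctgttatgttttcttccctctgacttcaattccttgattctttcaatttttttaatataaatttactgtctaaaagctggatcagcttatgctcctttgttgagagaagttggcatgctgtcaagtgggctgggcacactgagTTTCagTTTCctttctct
EPSTI1: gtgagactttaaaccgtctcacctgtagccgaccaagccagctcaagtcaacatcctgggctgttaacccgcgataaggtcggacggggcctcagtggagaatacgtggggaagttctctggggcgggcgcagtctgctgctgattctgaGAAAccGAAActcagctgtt
SAMD9: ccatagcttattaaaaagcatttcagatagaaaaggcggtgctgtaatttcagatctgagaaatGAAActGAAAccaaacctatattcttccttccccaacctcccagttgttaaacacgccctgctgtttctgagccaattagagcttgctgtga
SAMD9L: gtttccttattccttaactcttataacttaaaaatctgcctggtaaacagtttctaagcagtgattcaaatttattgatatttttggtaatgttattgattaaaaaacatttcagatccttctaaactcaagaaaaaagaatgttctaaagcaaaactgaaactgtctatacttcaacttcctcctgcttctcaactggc

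Both GAAA pairs of IFI44L lie in an exact repeat of 85 bases, whose copies begin at positions -189 and -98 from the start. A repeat of that length within a window occurred in 33 of 35116 windows (0.094%). In IFI6, 2 of the 3 pairs lie in an exact repeat of 29 bases with copies from -173 and -132, a length reached by 310 windows (0.883%). IFI27 differs in that its pairs lie on opposite strands, at -108 and -95. The stretch agttggcatgctg, shared by IFI44 and both repeat copies of IFI44L, was the longest run of letters common to these neighbouring genes and was found in 3 windows, those of IFI44L and both of IFI44. SAMD9L has no exact match in its window although its paralog SAMD9 has 1. Near matches were not counted in any gene, and the SAMD9L stretch holds aaaactgaaa, which differs from the motif in 1 letter. A match is a description of letters and says nothing of binding.

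**Figure D1:**
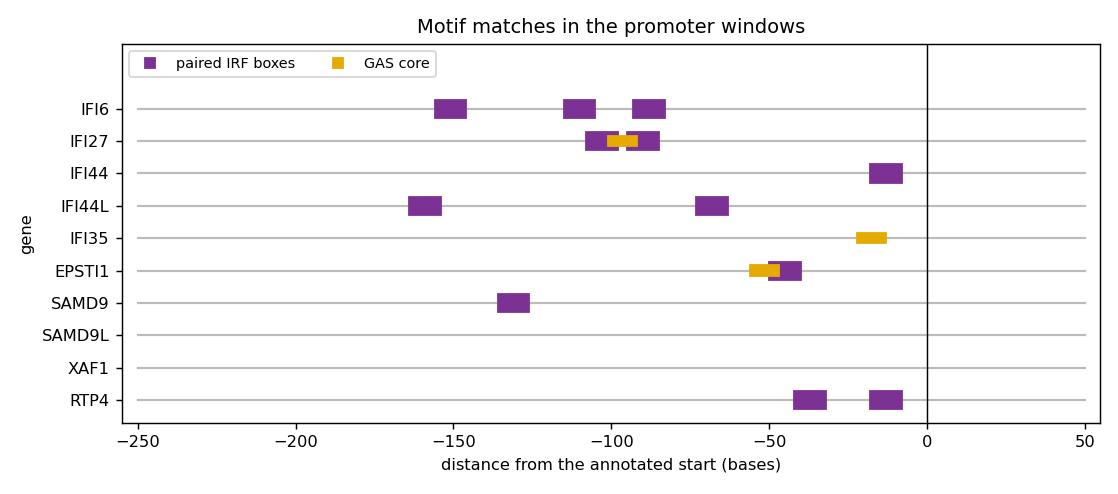
Motif matches by distance from the annotated start (bases, x axis) in the first promoter window of each gene (y axis). Purple boxes are paired IRF boxes on either strand and yellow boxes are GAS cores, and IFI6 holds the most pairs with 3.

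Together the 10 genes made up 0.0141% of counts in the WT/HAQ control, 0.0185% in the WT/- control and 0.0150% in the HAQ/- control. With cGAMP they made up 0.345%, 0.323% and 0.158% (WT/HAQ, WT/- and HAQ/-). All 10 of 10 rose with cGAMP over the lines by edgeR's quasi-likelihood test (blocked by line, Benjamini-Hochberg adjusted), where 2.27% of all genes tested were called higher and 0.959% lower. Lines stand in for replicates in that fit, so its p-values weigh the mean response against how much it varied between lines. With 2 residual degrees of freedom, the estimate of that spread draws in part on the other genes. With the WT/- line left out, 0 of 10 genes passed this test (adjusted p from 0.110 to 0.337, 0 calls among all genes), and all 10 were among the 1888 genes at an unadjusted p under 0.05. DESeq2 called all 10 over the 3 lines, where it called 772 genes higher and 583 lower of the 15126 tested. Without the line as a block, 4 of 10 passed (IFI44, IFI44L, SAMD9 and SAMD9L), where 57 of all genes tested were called higher and 4 lower. Folds in a single line rest on 1 library per condition and have no test. Their 95% Wilson intervals cover counting error only.

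**Figure D2:**
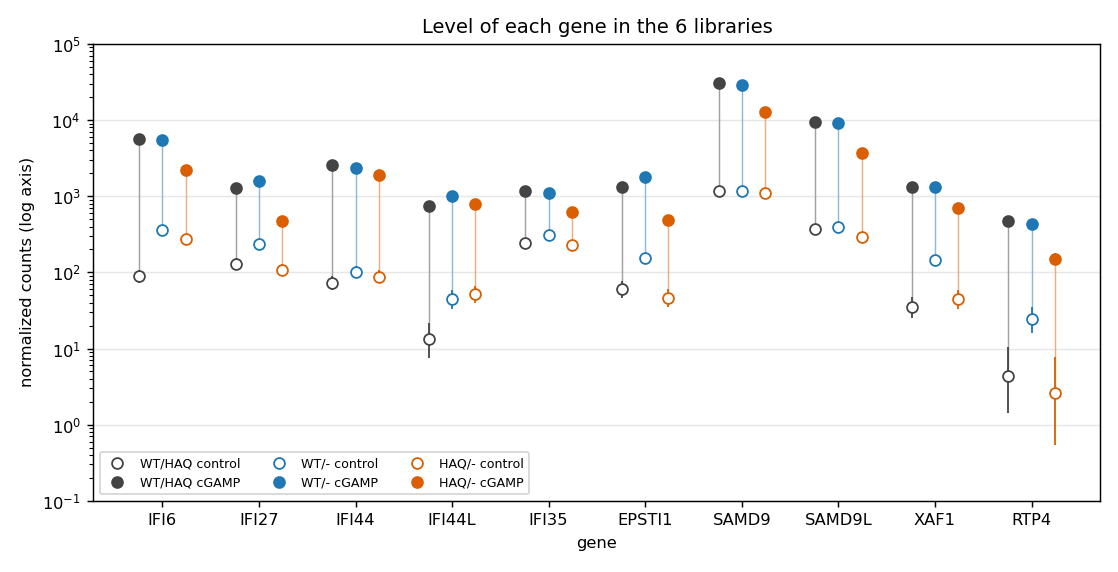
Normalized counts (log axis) of each gene in the 6 libraries, with open circles for control, filled circles for cGAMP and bars for 95% exact Poisson intervals. SAMD9 is highest in every library, and RTP4 is lowest in the controls with 2.62 to 24.3.

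IFI6 and IFI27 are small hydrophobic proteins of the same interferon-induced family, found at the endoplasmic reticulum or mitochondria. IFI6 (ENSG00000126709) lies on chromosome 1 of GRCh38 from 27666064 to 27672212. IFI6 had 89.3 normalized counts in the WT/HAQ control, 362.1 in WT/- and 273.9 in HAQ/-, and 5602, 5488 and 2189 in the cGAMP libraries in the same order. The WT/HAQ control stood far below both clone controls, while with cGAMP the parent and WT/- were level and HAQ/- was lower. Its fold was 62.8 for WT/HAQ (51.6 to 76.4), 15.2 for WT/- (13.7 to 16.8) and 7.99 for HAQ/- (7.10 to 9.001). The log2 fold in WT/HAQ exceeded that in HAQ/- by 2.97, the largest such difference of the 10 genes. Over the lines the log2 fold was 4.21 ± 0.59 (SE, edgeR's quasi-likelihood test, adjusted p = 0.0351, higher in 3 of 3 lines, adjusted p from 2.61e-06 to 0.337 over 9 alternatives).

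IFI27 (ENSG00000165949) lies on chromosome 14 from 94104836 to 94116695. IFI27 had 130.8 normalized counts in the WT/HAQ control, 236.1 in WT/- and 107.3 in HAQ/-, and with cGAMP 1288, 1588 and 474.0. WT/- was the highest line in both conditions, and HAQ/- was the lowest with cGAMP. The fold was 9.85 for WT/HAQ (8.31 to 11.7), 6.73 for WT/- (5.87 to 7.70) and 4.42 for HAQ/- (3.62 to 5.39), and over the lines the log2 fold was 2.75 ± 0.22 (SE, edgeR's quasi-likelihood test, adjusted p = 0.00925, higher in 3 of 3 lines, 3.59e-25 to 0.213 over the alternatives). IFI6 exceeded IFI27 by 4.35, 3.46 and 4.62 times in normalized counts in the WT/HAQ, WT/- and HAQ/- cGAMP libraries, but fell below it in the WT/HAQ control (ratio 0.682).

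IFI44 and IFI44L are related cytoplasmic proteins, both reported to dampen interferon responses, and their genes are neighbours on the plus strand of chromosome 1, 3650 bases apart. IFI44 (ENSG00000137965, 78649796 to 78664078) had 73.4 normalized counts in the WT/HAQ control, 101.7 in WT/- and 88.1 in HAQ/-, and with cGAMP 2597, 2351 and 1896. The controls differed by less than 1.5-fold, and with cGAMP HAQ/- was lowest, at 0.730 of WT/HAQ. The fold was 35.4 for WT/HAQ (28.5 to 44.02), 23.1 for WT/- (19.1 to 28.0) and 21.5 for HAQ/- (17.6 to 26.3), and IFI44 had the smallest adjusted p of the 10 genes (log2 fold over the lines 4.69 ± 0.17, SE, edgeR's quasi-likelihood test, adjusted p = 0.00256, higher in 3 of 3 lines, 6.51e-111 to 0.110 over the alternatives).

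IFI44L (ENSG00000137959, 78619902 to 78646145) had 13.3 normalized counts in the WT/HAQ control, 44.8 in WT/- and 51.5 in HAQ/-, and with cGAMP 733.8, 1018 and 801.3. It was the only gene of the 10 that was not lower in HAQ/- than in WT/HAQ with cGAMP. The fold was 55.3 for WT/HAQ (33.4 to 91.8), 22.7 for WT/- (17.0 to 30.4) and 15.6 for HAQ/- (11.9 to 20.3). Over the lines the log2 fold was 4.58 ± 0.30 (SE, edgeR's quasi-likelihood test, adjusted p = 0.00621, higher in 3 of 3 lines, 8.81e-40 to 0.174 over the alternatives). The ratio of IFI44 to IFI44L in normalized counts ran from 1.71 in the HAQ/- control to 5.53 in the WT/HAQ control.

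IFI35 is a leucine zipper protein that pairs with NMI, and EPSTI1 is an interferon-induced protein first described in epithelial cells grown with stroma. IFI35 (ENSG00000068079, chromosome 17, 43006740 to 43014456) had 241.3 normalized counts in the WT/HAQ control, 312.6 in WT/- and 227.7 in HAQ/-, and with cGAMP 1177, 1117 and 614.1. It had the smallest fold of the 10 genes in each line, 4.88 for WT/HAQ (4.28 to 5.56), 3.57 for WT/- (3.15 to 4.05) and 2.70 for HAQ/- (2.33 to 3.12). The log2 fold over the lines was 1.86 ± 0.17 (SE, edgeR's quasi-likelihood test, adjusted p = 0.0127, higher in 3 of 3 lines, 2.28e-15 to 0.233 over the alternatives).

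EPSTI1 (ENSG00000133106) lies on chromosome 13 from 42886388 to 42992271. EPSTI1 had 60.1 normalized counts in the WT/HAQ control, 155.8 in WT/- and 46.2 in HAQ/-, and with cGAMP 1338, 1764 and 480.5. As with IFI27, WT/- was highest in both conditions and HAQ/- lowest with cGAMP, while the HAQ/- and WT/HAQ controls were within counting error of each other. The fold was 22.3 for WT/HAQ (17.5 to 28.4), 11.3 for WT/- (9.64 to 13.3) and 10.4 for HAQ/- (7.82 to 13.8), so the clones had like folds from control levels that differed 3.37-fold. The log2 fold over the lines was 3.78 ± 0.23 (SE, edgeR's quasi-likelihood test, adjusted p = 0.00545, higher in 3 of 3 lines, 4.26e-44 to 0.129 over the alternatives).

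SAMD9 and SAMD9L are paralogous restriction factors that block poxvirus replication and inhibit protein synthesis. Both are on the minus strand of chromosome 7, 12032 bases apart with no protein-coding gene between them. SAMD9 (ENSG00000205413, 93099513 to 93118023) had 1178 normalized counts in the WT/HAQ control, 1170 in WT/- and 1090 in HAQ/-, and with cGAMP 30893, 29349 and 12741. Its control levels were nearly equal in the 3 lines, and its cGAMP level in HAQ/- stood apart. Among all genes tested it ranked 33, 38 and 104 (WT/HAQ, WT/- and HAQ/-) with cGAMP, from 2964 to 3071 in the controls. The fold was 26.2 for WT/HAQ (24.8 to 27.7), 25.1 for WT/- (23.7 to 26.5) and 11.7 for HAQ/- (11.02 to 12.4). The log2 fold over the lines was 4.31 ± 0.28 (SE, edgeR's quasi-likelihood test, adjusted p = 0.00621, higher in 3 of 3 lines, 5.94e-66 to 0.139 over the alternatives).

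SAMD9L (ENSG00000177409, 93130056 to 93148385) had 367.7 normalized counts in the WT/HAQ control, 396.6 in WT/- and 289.6 in HAQ/-, and with cGAMP 9420, 9221 and 3696. With cGAMP the order of the lines was that of SAMD9. The fold was 25.6 for WT/HAQ (23.2 to 28.3), 23.2 for WT/- (21.1 to 25.6) and 12.8 for HAQ/- (11.4 to 14.3), and the log2 fold over the lines was 4.30 ± 0.23 (SE, edgeR's quasi-likelihood test, adjusted p = 0.00388, higher in 3 of 3 lines, 6.74e-80 to 0.128 over the alternatives). SAMD9 exceeded SAMD9L by 2.95 to 3.77 times in normalized counts in the 6 libraries, and the profiles of these paralogs, centred over the libraries, were the closest of any pair of the 10 genes (root mean square distance 0.108 on the log2 scale).

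XAF1 binds and antagonizes XIAP, an inhibitor of apoptosis, and RTP4 is a chaperone that carries G protein-coupled receptors to the cell surface. XAF1 (ENSG00000132530, chromosome 17, 6755447 to 6775647) had 35.4 normalized counts in the WT/HAQ control, 146.5 in WT/- and 44.5 in HAQ/-, and with cGAMP 1318, 1332 and 699.5. The WT/- control stood above the other controls, while with cGAMP WT/HAQ and WT/- were level. The fold was therefore smallest in WT/-, at 37.3 for WT/HAQ (27.3 to 51.0), 9.09 for WT/- (7.68 to 10.8) and 15.7 for HAQ/- (11.8 to 20.9). The log2 fold over the lines was 4.01 ± 0.38 (SE, edgeR's quasi-likelihood test, adjusted p = 0.0130, higher in 3 of 3 lines, 1.76e-27 to 0.128 over the alternatives). PRAL, annotated on the opposite strand, shares 2535 exonic bases with the canonical transcript of XAF1. It had 0 counts in the controls and 74, 58 and 12 with cGAMP in WT/HAQ, WT/- and HAQ/-. Whether the counting used strand is not given in the sources used here, so the XAF1 level is uncertain by that overlap.

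RTP4 (ENSG00000136514) lies on chromosome 3 from 187368385 to 187372076. RTP4 had 4.42 normalized counts in the WT/HAQ control, 24.3 in WT/- and 2.62 in HAQ/-, from 5, 26 and 3 counts, and with cGAMP 472.4, 431.4 and 152.2. The fold was 107 for WT/HAQ (45.5 to 251), 17.8 for WT/- (11.95 to 26.4) and 58.1 for HAQ/- (19.6 to 173), where the HAQ/- interval overlaps those of both other lines. The log2 fold over the lines was 5.14 ± 0.43 (SE, edgeR's quasi-likelihood test, adjusted p = 0.010, higher in 3 of 3 lines, 3.55e-22 to 0.110 over the alternatives). The WT/HAQ and HAQ/- folds rest on controls of 5 and 3 counts, and with a floor of 10 counts their log2 values went from 6.74 to 5.74 and from 5.86 to 4.12.

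Per kilobase of merged exons, IFI6 and SAMD9 held the top places in all 3 cGAMP libraries, and IFI44L was lowest in each of them. IFI6 stood at 5985 normalized counts per kb and SAMD9 at 4507 in WT/HAQ with cGAMP, 5863 and 4281 in WT/-, and 2339 and 1859 in HAQ/-. The places of IFI27 and IFI44L depend on the length used. The merged exons of IFI27 span 4144 bases and its canonical transcript 725, and by canonical length RTP4 (101.4 per kb) and not IFI44L (137.5) was lowest in HAQ/- with cGAMP.

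All 10 genes were at least 1.5-fold higher with cGAMP in each of the lines WT/HAQ, WT/- and HAQ/-, against 12.8%, 11.9% and 6.75% of the genes tested. At least 8-fold were 9, 8 and 7 (WT/HAQ, WT/- and HAQ/-), against 1.61%, 1.26% and 0.364% of genes tested. The median log2 fold was 4.93, 4.04 and 3.61 (WT/HAQ, WT/- and HAQ/-), where the median over all genes was within 0.02 of 0 in each line. The order of the genes by fold differed between lines. RTP4 led in WT/HAQ and HAQ/- and SAMD9 in WT/-. The lead of RTP4 rests on controls of 5 and 3 counts, and with a floor of 10 counts IFI6 (5.97) led in WT/HAQ and IFI44 (4.43) in HAQ/-. IFI35 and IFI27 were the lowest pair in each.

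**Figure D3:**
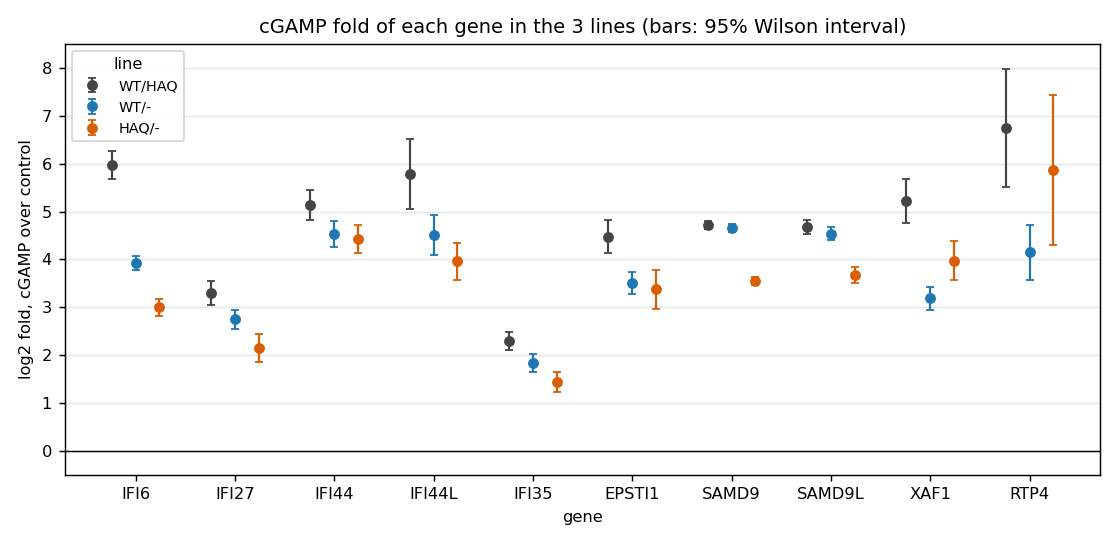
Log2 fold of cGAMP over control for each gene in WT/HAQ, WT/- and HAQ/-, with 95% Wilson intervals on counts and 1 library per point. All 30 points lie above 0, from 1.43 for IFI35 in HAQ/- to 6.74 for RTP4 in WT/HAQ.

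Between lines, the folds of all 10 genes were larger in WT/HAQ than in HAQ/- (48.8% of all genes were), by a median of 1.13 on the log2 scale, and for 9 genes the interval of the difference left out 0, RTP4 being the exception. All 10 were also larger in WT/HAQ than in WT/- (45.5% of all genes were), by a median of 0.80, with SAMD9 (0.06) and SAMD9L (0.14) within counting error. Between the clones, 8 of 10 folds were larger in WT/- (51.8% of all genes were), and 5 of them beyond counting error. The median difference was 0.48, and 0.28 with all libraries thinned to the smallest total. XAF1 (-0.79) had the larger fold in HAQ/- beyond counting error. RTP4 (-1.71) also had the larger fold in HAQ/-, but within counting error and on 3 control counts. With a floor of 10 counts its log2 fold was 4.15 in WT/- and 4.12 in HAQ/-, so this exception was lost. These 3 comparisons share libraries and are not independent, and clone and STING1 level cannot be told apart from the haplotype.

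A fold mixes the control and the treated level, so these were compared apart. In the control libraries, 6 of 10 genes were at least 1.5-fold higher in WT/- than in WT/HAQ (13.0% of genes tested were). RTP4 was 5.49-fold, XAF1 4.14-fold, IFI6 4.06-fold, IFI44L 3.38-fold, EPSTI1 2.59-fold and IFI27 1.80-fold higher. SAMD9 (ratio 0.993) and SAMD9L (1.08) were not. In the HAQ/- control, IFI6 (3.07-fold) and IFI44L (3.88-fold) were at least 1.5-fold above the WT/HAQ control (7.37% of genes tested were) and RTP4 was at least 1.5-fold below it on 3 against 5 counts (8.59% of genes tested were), a log2 ratio of -0.76 with an interval from -2.68 to 1.16. Between the clones, 4 of 10 were at least 1.5-fold higher in the WT/- control than in the HAQ/- control (15.3% of genes tested were), namely RTP4 (log2 ratio 3.21, 1.58 to 4.85), EPSTI1 (3.37-fold), XAF1 (3.29-fold) and IFI27 (2.20-fold).

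With cGAMP the picture was another. No gene of the 10 differed by 1.5-fold or more between WT/- and WT/HAQ, with a median log2 ratio of -0.03, where 14.6% of genes tested were higher and 9.89% lower. Beyond counting error, WT/- was higher for IFI44L (log2 ratio 0.47), EPSTI1 (0.40) and IFI27 (0.30) and lower for IFI44 (-0.14) and SAMD9 (-0.07). In HAQ/-, 8 of 10 were at least 1.5-fold below WT/HAQ (13.3% of genes tested were), with a median log2 ratio of -1.31, and the exceptions were IFI44 (ratio 0.730) and IFI44L (1.09). WT/- exceeded HAQ/- in all 10 genes (51.9% of genes tested), by at least 1.5-fold in 8 of them (19.0%).

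**Figure D4:**
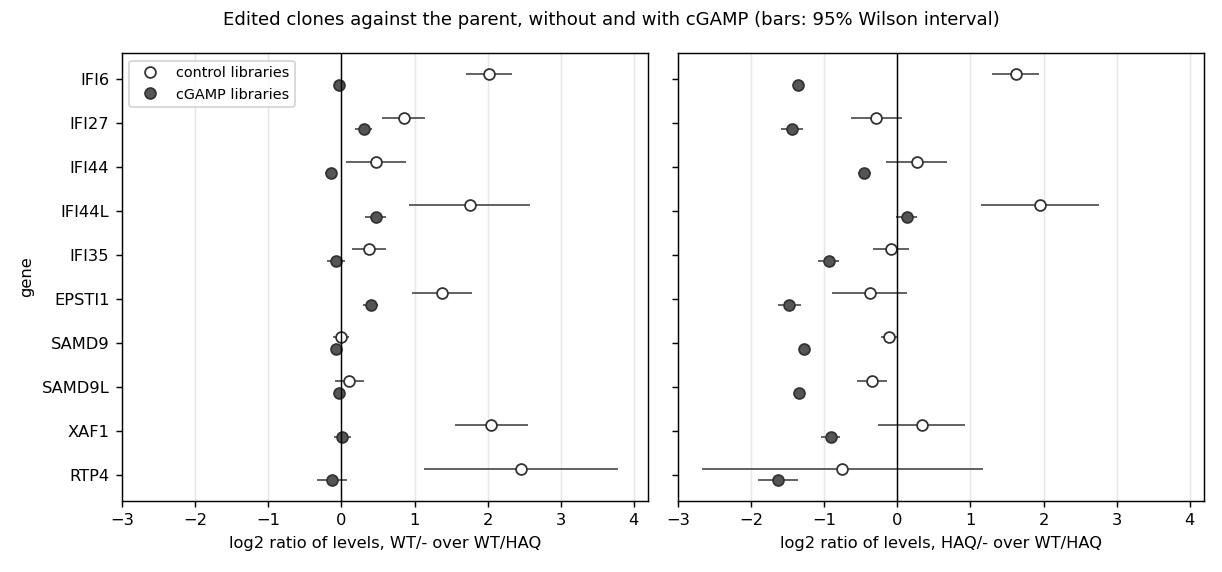
Log2 ratio of normalized counts of WT/- (left) and HAQ/- (right) over WT/HAQ, with open circles for control libraries, filled circles for cGAMP libraries and bars for 95% Wilson intervals. With cGAMP, WT/- lies between -0.14 and 0.47 (median -0.03), with IFI44L, EPSTI1 and IFI27 clear of 0 on the upper side, while HAQ/- lies below 0 for every gene but IFI44L (median -1.31).

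The rise in normalized counts, cGAMP minus control, gave the same genes another order. In HAQ/- it was 80.4% (74.9 to 86.3) of the WT/- rise for IFI44 and 77.1% (69.1 to 86.0) for IFI44L, the pair of neighbours on chromosome 1. For XAF1 it was 55.3% (49.4 to 61.8) and for IFI35 48.1% (40.1 to 57.6). SAMD9 and SAMD9L lay close together at 41.3% (40.3 to 42.4) and 38.6% (36.9 to 40.4), followed by IFI6 at 37.4% and RTP4 at 36.7%. The lowest were IFI27 at 27.1% (23.4 to 31.5) and EPSTI1 at 27.0% (23.9 to 30.5). The intervals cover counting error only, by the delta method on the log scale.

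Of the genes upstream, the ligands differed most in fold between lines. IFNB1, which encodes IFN-β, went from 5 to 1325 counts in WT/HAQ, from 2 to 1934 in WT/- and from 6 to 15 in HAQ/-. IFNL1, a type III interferon, went from 4 to 1575, from 4 to 1633 and from 7 to 17. The receptor chains IFNAR1 and IFNAR2 had log2 folds from -0.14 to 0.37 and were not called by edgeR's quasi-likelihood test (adjusted p = 0.969 and 0.463). The ISGF3 parts STAT2 and IRF9 rose, STAT2 by log2 folds of 3.24, 2.55 and 1.80 in WT/HAQ, WT/- and HAQ/-, and IRF9 by 2.84, 1.38 and 2.33 (edgeR's quasi-likelihood test, adjusted p = 0.0189 and 0.0297, higher in 3 of 3 lines). As for XAF1, the WT/- fold of IRF9 was the smallest of the lines, from a control of 545.0 normalized counts against 188.3 in WT/HAQ and 190.2 in HAQ/-.

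The ISG signature of the study holds 38 genes, of which 4 (EPSTI1, IFI35, RTP4 and SAMD9L) are among the 10. Of the other 34, 31 were called higher by edgeR, and CASP1, PSME2 and TRAFD1 were not called. Their median log2 fold was 3.17, 2.64 and 2.23 (WT/HAQ, WT/- and HAQ/-). By mean over the lines OASL, an antiviral relative of the oligoadenylate synthetases, had the largest log2 folds (8.47, 7.69 and 6.33) and PSME2, a proteasome activator subunit, the smallest (0.61, 0.24 and 0.43). The WT/- fold exceeded the HAQ/- fold in 30 of 34, by a median of 0.53.

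By the root mean square distance of centred log2 levels over the 6 libraries, the genes most like the mean profile of the 10 were DDX60 (0.25), APOL6 (0.27), SAMHD1 (0.27), DUOXA1 (0.28) and OAS3 (0.29). These are the closest of all genes tested outside the 10. The 10 genes themselves lay farther from that mean, from 0.30 for XAF1 to 1.10 for IFI35.

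The nearest expressed protein-coding genes on either side, 16 in all, lay from 151 to 2660002 bases away. They were tested in the same fit and 0 were called by edgeR. At an unadjusted p under 0.05 were 7 of them (3819 of all 15126 genes tested were), and 1, DNAJC15, was called by DESeq2. VAT1 lies 151 bases from IFI35 and had log2 folds of 0.18, 0.06 and 0.09 in WT/HAQ, WT/- and HAQ/-. IFI27L1, 990 bases from IFI27, had 0.55, -0.30 and 0.15, and both genes were chosen for naming after their values were seen. At least 1.5-fold higher were 5, 5 and 0 neighbours in WT/HAQ, WT/- and HAQ/-, where 12.8%, 11.9% and 6.75% of all genes tested were. They were HEPACAM2, DNAJB4, DNAJC15 and CDK6 in both WT/HAQ and WT/-, C17orf100 in WT/HAQ and ADGRL2 in WT/-. Some of these are distant, with CDK6 262940 bases from SAMD9, DNAJB4 601938 from IFI44L and ADGRL2 2642069 from IFI44. HEPACAM2, 40149 bases from SAMD9L, had 0 counts in all 3 controls and 30, 43 and 1 with cGAMP (WT/HAQ, WT/- and HAQ/-). It passed the filter through its cGAMP counts alone, so its place among the higher neighbours was set by the filter. Against a floor of 3 counts per library its fold was at least 10.8 in WT/HAQ and at least 20.5 in WT/-.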

How the data were processed

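Poly(A)-selected RNA from 6 SKOV3 libraries was sequenced, and the authors deposited expected counts per Ensembl gene, not normalized. The submitters' processing notes name STAR, RSEM and GRCh38, with versions and roles not given in the sources used here. Of the 10 genes, 9 had whole values in every library, and XAF1 was rounded as the rest. Genes with a mean of at least 10 counts were kept. Normalized counts are at the geometric mean of the TMM-scaled library sizes (edgeR 4.0.16, R 4.3.3). Counts under 3 were set to 3 in folds. edgeR's quasi-likelihood test used the line as a block, with 2 residual degrees of freedom, Benjamini-Hochberg adjustment over 15126 genes and a threshold of 0.05. That test gives no SE, so each SE was computed as the absolute log2 fold over the square root of the F statistic. DESeq2 1.42.0 was an alternative, beside other scalings, filters, floors and lines left out. Wilson and Poisson intervals are at 95%. Positions are from GENCODE release 44 on GRCh38 and promoters from RefSeq. Python 3.11.15 was used for the rest.

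Named were the 10 genes, STING1, the ligands, receptors, STAT2 and IRF9, the ends of the signature, the 5 most similar genes and neighbours at 1.5-fold or more. The genes, lists and tests were chosen with earlier results of these data known. Of the listed genes, 2 are not reported here. Fits and folds were tested on simulated data.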

Additional observations from a re-analysis of the deposited data

How the results depend on the processing

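Medians of the 10 genes' folds, fold differences and control ratios kept their direction under other scalings, thinning to the smallest total and other floors. The medians of folds also did so under other filters. Each moved by less than the median counting error of a single gene, taken from the Wilson intervals. This is not the error of a median. On thinning, the median fold difference of WT/- minus HAQ/- went from 0.48 to 0.28, against a single-gene error of 0.38. The count of genes raised by cGAMP was 10 of 10 in each line under these scalings, thinning, floors and filters, and at folds of 2 and 1.2. Counts at 1.5-fold between lines were computed at the settings of the report only. The calls depended on the lines and the block. Without the replicate block 4 of the 10 genes were called, and the others had adjusted p from 0.0624 to 0.123. With 1 line left out in turn, between 0 and 10 of the 10 were called, 0 without WT/-, where all 10 kept an unadjusted p under 0.05, and 1888 genes did so in all. The log2 folds over the lines had the same sign in every alternative.

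Over all genes, 344 were called higher and 145 lower. The counts were 581 and 424 with a mean count of at least 1, 772 and 583 with DESeq2, and 57 and 4 without the replicate block. With a line left out they ran from 0 to 1285 higher and from 0 to 1309 lower: 136 and 50 without WT/HAQ, 0 and 0 without WT/-, and 1285 and 1309 without HAQ/-. The cause was not tested. An alternative chosen after seeing the data, the canonical transcript as the length, changed IFI27 in WT/HAQ with cGAMP from 310.8 to 1776 normalized counts per kb and IFI44L in HAQ/- with cGAMP from 69.0 to 137.5.

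With 1 library per condition, differences between lines carry counting error only, and those of RTP4 are limited by controls of 3 to 26 counts. The libraries carry no replicate numbers that pair cultures, and the line was the block.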

Other observations

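Relatives and partners of these genes, chosen after the data were seen, did not share one pattern. IFI16, a DNA sensor and member of another interferon-induced family, had log2 folds of 2.16, 2.15 and 1.87 (WT/HAQ, WT/- and HAQ/-) and rose over the lines (edgeR's quasi-likelihood test, adjusted p = 0.00287, higher in 3 of 3 lines). NMI, the partner of IFI35, had 1.37, 1.13 and 0.63 and also rose (edgeR, adjusted p = 0.0374, higher in 3 of 3 lines). IFI30, a lysosomal thiol reductase, had 0.63, 1.07 and 0.52 (edgeR, adjusted p = 0.0787). IFI27L2, a relative of IFI27, had 0.47, 0.16 and 0.26 (edgeR, adjusted p = 0.388). XIAP, the target of XAF1, had -0.19, 0.18 and 0.05 (edgeR, adjusted p = 0.954).

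An unnamed antisense gene opposite IFI6 (ENSG00000225886) had 0, 1 and 0 counts in the WT/HAQ, WT/- and HAQ/- controls and 21, 25 and 10 with cGAMP. By canonical transcripts it shares no exonic base with IFI6, and other transcripts were not compared. Whether the counting used strand is not given in the sources used here.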
